A study of Rattus norvegicus with 6 samples.

Results

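The genes described here are 9 genes of the rat MHC class II system, measured in the renal cortex of rats given carbon tetrachloride or corn oil. They are the class II chains RT1-Da, RT1-Db1, RT1-Ba and RT1-Bb, the peptide loading chains RT1-DMa, RT1-DMb and RT1-DOb, the invariant chain Cd74 and the class II transactivator Ciita. They were chosen by name out of 15645 genes that had a symbol and a probe on the array. Earlier results of these data were known at that choice. Each gene is represented by the probe with the highest mean log2 signal over all 6 arrays, so that mean level was used in the choice and is given as a description only. Of the 9 genes, 8 had a probe well above background on all 6 arrays and were tested. RT1-Ba had 1 probe, which was not well above background on any array, and was not tested.

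The carbon tetrachloride group was 3 male Sprague-Dawley rats of the Crl:CD(SD) stock given carbon tetrachloride, a chlorinated solvent, at 100 mg/kg/day for 4 weeks, and the corn oil group was 3 such rats given the oil over the same 4 weeks. All were 5 weeks old at purchase, and each gave 1 single-colour (Cy3) Agilent array. Crl:CD(SD) is an outbred stock and class II genes are polymorphic, so the rats need not share alleles at them. Benzyl acetate appears in the design text, but the title, the sample labels and the protocol all give carbon tetrachloride. Over all probes, r between arrays was 0.9906 to 0.9916 among carbon tetrachloride rats, 0.9858 to 0.9883 among corn oil rats and 0.9865 to 0.9903 across the groups. All 8 proximal tubule markers examined were well above background on every array of this labelled renal cortex. Carbon tetrachloride replicate 3 lay alone on a second slide with its own scan, whereas the other 5 arrays shared a slide, with the corn oil arrays in its row 1 and the treated arrays in its row 2. Carbon tetrachloride replicate 3 lay in row 1 of its slide, the row of the corn oil arrays.

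MHC class II molecules are pairs of an alpha and a beta chain that present peptides from the endosomal pathway to CD4 T cells. The invariant chain, encoded by Cd74, holds the binding groove until RT1-DM, the rat counterpart of human HLA-DM, exchanges its remnant for other peptides, and RT1-DO tempers RT1-DM. Transcription of these genes depends on CIITA, a co-activator that binds no DNA itself and is recruited by factors sitting on the X, X2 and Y boxes of their promoters. In kidney, class II is carried mainly by dendritic cells, macrophages and B cells of the interstitium, and interferon gamma can induce it in tubular epithelium and endothelium.

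The boxes through which CIITA acts could be read in the promoter sequences of RefSeq (build GRCr8), which held 7 of the 9 genes. RT1-DMb and Ciita had no entry in the table used. The stretches that hold these boxes are shown because such boxes are where these factors bind in class II promoters. The X and Y boxes together were matched in 4 of the 7, or in 5 with a looser X box. The stretches run 5′ to 3′ on the strand of the gene, and all lie before its start. Capitals mark the X box core (AG, any 2 bases, AC, any base, G, any base, TG) and the Y box core ATTGG for RT1-Da (chr20:4515320-4515382, + strand), RT1-Db1 (chr20:4560226-4560287, - strand), RT1-Bb (chr20:4604163-4604224, - strand) and RT1-DOb (chr20:4627590-4627649, - strand). For RT1-DMa (chr20:4712383-4712444, - strand) they mark a looser X box core, the same without its first A, and the Y box. For RT1-Ba (chr20:4576969-4577030, + strand) they mark the X2 box core TGACG on both strands, overlapping, and the Y box. For Cd74 (chr18:56526972-56527033, + strand) they mark CCAAT, the Y box core on the opposite strand.
RT1-Da: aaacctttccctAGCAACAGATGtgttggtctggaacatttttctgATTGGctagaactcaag
RT1-Db1: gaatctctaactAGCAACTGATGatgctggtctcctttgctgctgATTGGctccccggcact
RT1-Ba: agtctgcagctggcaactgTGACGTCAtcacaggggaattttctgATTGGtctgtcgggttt
RT1-Bb: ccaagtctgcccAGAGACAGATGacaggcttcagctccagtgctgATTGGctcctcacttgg
RT1-DMa: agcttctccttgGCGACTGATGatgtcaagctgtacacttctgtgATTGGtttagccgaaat
RT1-DOb: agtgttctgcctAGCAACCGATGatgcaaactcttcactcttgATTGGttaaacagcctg
Cd74: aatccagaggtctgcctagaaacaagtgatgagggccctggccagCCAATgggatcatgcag

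Both strands of each window, from 250 bases before to 50 bases after the start, were searched. The X box core was found in 4.73% of all 33469 promoters of the table the X2 box core TGACG in 21.2% and the Y box core ATTGG in 37.5%. An X box core followed within 40 bases by a Y box core, on the same strand and before the start, was found in 0.0568% of promoters, which is 19 of them, and 4 of these 19 are RT1-Da, RT1-Db1, RT1-Bb and RT1-DOb. The boxes of these 4 genes are separated by 23, 22, 22 and 20 bases. With the looser X box core, letters chosen after the sequences were seen, the pair was found in 0.338% of promoters and in RT1-DMa too, where 23 bases separate the boxes. These matches describe letters in a reference sequence and not binding in these rats.

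Signals of the classical class II chains were lower in the carbon tetrachloride group. On a linear scale, on which 1 is the 75th percentile of an array's signals, RT1-Da, the alpha chain of the RT1-D molecule, had 6.12, 4.61 and 6.58 in carbon tetrachloride rats 1 to 3, against 8.95, 8.53 and 8.47 in corn oil rats 1 to 3. All 3 treated arrays lay below all 3 control arrays, and the control arrays were close to one another. On the log2 scale its level was 2.51 ± 0.27 in carbon tetrachloride rats and 3.11 ± 0.04 in corn oil rats (SD, n = 3 each). Its log2 fold change was -0.60 ± 0.14 (SE, 95% interval -0.95 to -0.25), which is a fold of 0.66, and its limma adjusted p over all transcripts was 0.697.

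RT1-Db1, the beta chain that pairs with RT1-Da, had linear signals of 4.68, 3.54 and 6.61 in carbon tetrachloride rats, against 7.99, 6.37 and 9.54 in corn oil rats. The groups overlapped, because carbon tetrachloride replicate 3 lay above corn oil replicate 2. The log2 fold change was -0.72 ± 0.26 (SE), a fold of 0.609, with a limma adjusted p of 0.778. RT1-Bb, the beta chain of the RT1-B molecule, had linear signals of 5.59, 3.91 and 7.94 in carbon tetrachloride rats, against 10.2, 7.08 and 7.38 in corn oil rats. Here carbon tetrachloride replicate 3 was the second highest of the 6 arrays. The log2 fold change was -0.54 ± 0.28 (SE), with a 95% interval from -1.24 to 0.16 and a limma adjusted p of 0.816. The probe of RT1-Ba, the alpha chain of RT1-B, had log2 signals of -7.97, -7.89 and -8.11 in carbon tetrachloride rats and -7.91, -7.70 and -8.12 in corn oil rats, all not well above background.

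**Figure D1:**
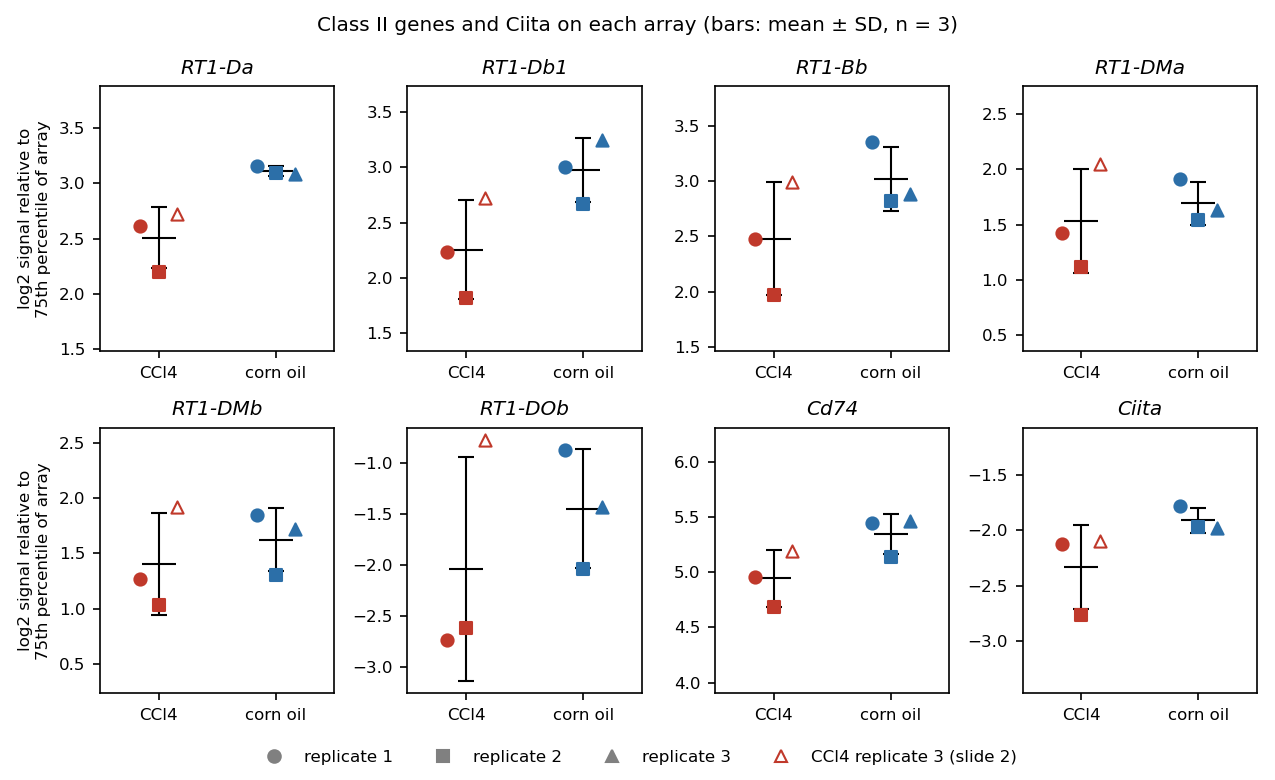
Log2 signal relative to the 75th percentile of the array (vertical axis) of the 8 tested genes in carbon tetrachloride (CCl4, red) and corn oil (blue) rats. Points are arrays, bars are mean ± SD (n = 3), and the open triangle is carbon tetrachloride replicate 3 on slide 2. Treated replicates 1 and 2 are the 2 lowest arrays in every panel, while the open triangle lies among the controls or above them for RT1-Db1, RT1-Bb, RT1-DMa, RT1-DMb, RT1-DOb and Cd74.

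Cd74 was the brightest of these probes, which says nothing of its abundance, since signals of different probes are not on 1 scale. Its linear signals were 31.2, 25.6 and 36.5 in carbon tetrachloride rats, against 43.4, 35.4 and 44.2 in corn oil rats. Carbon tetrachloride replicate 3 exceeded corn oil replicate 2, and the other treated arrays were below all controls. The log2 fold change was -0.41 ± 0.16 (SE), a fold of 0.755, with a limma adjusted p of 0.791. Ciita had linear signals of 0.23, 0.147 and 0.233 in carbon tetrachloride rats, against 0.292, 0.255 and 0.254 in corn oil rats. Its groups did not overlap, and carbon tetrachloride replicate 2 stood apart as the lowest. The log2 fold change of Ciita was -0.42 ± 0.20 (SE), a fold of 0.746, with a limma adjusted p of 0.798, and without carbon tetrachloride replicate 2 it was -0.20.

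The peptide loading genes separated the treated rats from each other more than from the controls. RT1-DMa, the alpha chain of the loading catalyst, had linear signals of 2.69, 2.18 and 4.13 in carbon tetrachloride rats, against 3.76, 2.91 and 3.09 in corn oil rats, and RT1-DMb, its beta chain, had 2.42, 2.04 and 3.79 against 3.61, 2.46 and 3.29. For both chains carbon tetrachloride replicate 3 was the highest array of all and replicates 1 and 2 were the lowest. Their log2 fold changes were -0.16 ± 0.25 and -0.22 ± 0.26 (SE), with limma adjusted p of 0.916 and 0.891. RT1-DOb, the beta chain of the modulator of DM, which is known mainly from B cells and some dendritic cells, had linear signals of 0.151, 0.163 and 0.586 in carbon tetrachloride rats, against 0.549, 0.244 and 0.371 in corn oil rats. It varied by 3.88-fold between the highest and lowest array, the widest of the 8 genes. Its log2 fold change was -0.59 ± 0.59 (SE), with a 95% interval from -2.05 to 0.86 and a limma adjusted p of 0.868.

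None of these differences was a call: 0 of the 8 tested genes had a limma adjusted p under 0.05, where 0.00321% of the 31193 tested transcripts passed. All 8 were lower, where 47.7% of transcripts were, and the median log2 fold change of the 8 was -0.48, against 0.01 for all transcripts. At an unadjusted p under 0.05, 3 were lower (RT1-Da, RT1-Db1 and Cd74), where 2.63% of transcripts were lower and 6.3% differed in either direction. The groups did not overlap, with the treated one lower, for 2 (RT1-Da and Ciita), where this held for 5.28% of transcripts, and for 0 with the treated one higher, where it held for 7.55%. The genes were chosen with earlier results of these data known, so these counts and the median are a description only. The 8 genes also vary together between arrays and are no independent observations, so the counts do not add up as separate evidence. In RNA of a whole tissue, fewer class II-bearing cells and less class II RNA per cell cannot be told apart.

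The slide moved with these values. On the 5 arrays of the first slide the log2 fold changes were -0.70 ± 0.14 for RT1-Da, -0.95 ± 0.22 for RT1-Db1, -0.79 ± 0.24 for RT1-Bb, -0.53 ± 0.15 for Cd74 and -0.54 ± 0.21 for Ciita (SE, 2 treated and 3 control arrays). For the loading genes they were -0.42 ± 0.16 for RT1-DMa, -0.47 ± 0.19 for RT1-DMb and -1.23 ± 0.35 for RT1-DOb. The median over the 8 was -0.62 there, 6 of the 8 had an unadjusted p under 0.05 in limma and were lower, where 2.78% of transcripts were, and 0 had an adjusted p under 0.05, with the smallest at 0.636. The second slide held only 1 array, in the row of the controls, so its rat, slide and row cannot be told apart, and on the first slide treatment and row cannot be told apart. Carbon tetrachloride replicate 2 pulled the other way: without it the median was -0.28, RT1-DMa was at 0.04 and 1 gene was left at an unadjusted p under 0.05. That count of 3 was likewise 1 without carbon tetrachloride replicate 1, without corn oil replicate 1 or without corn oil replicate 3, so it rests on single arrays.

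**Figure D2:**
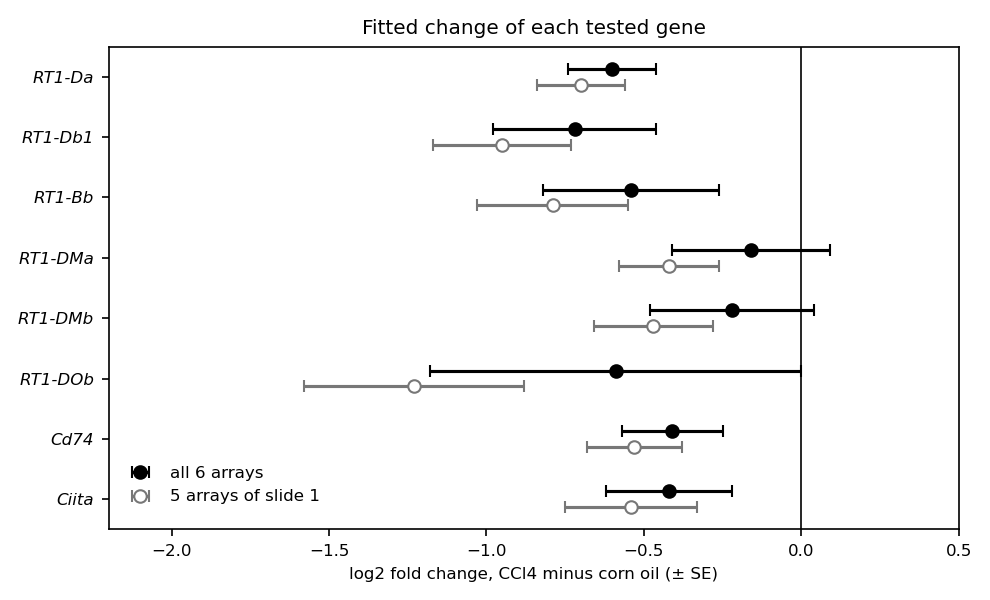
Fitted log2 fold change, carbon tetrachloride (CCl4) minus corn oil, with its SE, of each tested gene. Filled points are the fit on all 6 arrays and open points the fit on the 5 arrays of slide 1. All 16 points lie below 0, and the loading genes RT1-DMa, RT1-DMb and RT1-DOb have SE bars that reach or pass 0 in the fit on all arrays.

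Several probes of 1 gene did not always tell the same story. The 2 probes each of RT1-Da, RT1-DMa, RT1-DOb and Ciita had similar changes, at -0.60 and -0.57, at -0.16 and -0.17, at -0.59 and -0.62, and at -0.42 and -0.43 on the log2 scale. The groups overlapped for the second probe of Ciita and did not for the second probe of RT1-Da. RT1-Db1 had 5 probes, of which 4 were lower in carbon tetrachloride rats, with log2 fold changes of -0.72, -0.79, -1.27 and -0.92. The remaining probe, A_44_P139882, had a log2 fold change of 0.50 ± 0.77 (SE). On corn oil replicate 3 it was at -3.92 on the log2 scale, below the -1.88 to -0.87 of the other 5 arrays, while A_64_P134927 was highest on that same array, at 3.84 against 1.08 to 2.34. RT1-Bb showed the widest such gap: its probe A_44_P552452 was at 3.47 on corn oil replicate 3 and not well above background on the other 5 arrays, at -8.00 to -7.72. The other 2 probes of RT1-Bb placed corn oil replicate 3 among the other corn oil arrays or below them. So 1 control rat stood apart from the 5 other rats at 3 probes of 2 class II beta chains, in both directions. The probe sequences were not examined, and whether this rat carried other alleles was not tested.

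**Figure D3:**
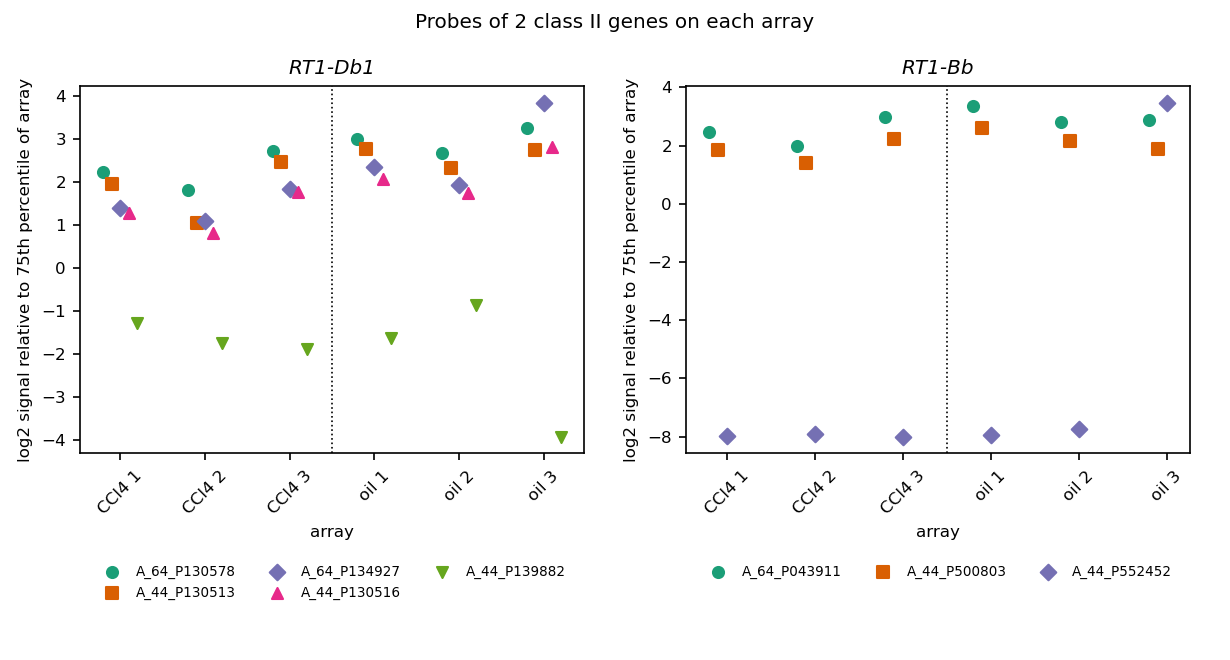
Log2 signal relative to the 75th percentile of the array (vertical axis) of every probe of RT1-Db1 (5 probes, left) and RT1-Bb (3 probes, right) on the 3 carbon tetrachloride (CCl4) and 3 corn oil arrays. Points are single arrays. On corn oil replicate 3 the probe A_44_P552452 is at 3.47, while on the other arrays it lies at or below -7.72, and A_44_P139882 is at its lowest, -3.92.

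In the GRCr8 order of RefSeq genes, the RT1 genes of the 9 lie together on chromosome 20, with Cd74 on chromosome 18 and Ciita on chromosome 10. Between RT1-Da and RT1-Ha the order holds 16 protein-coding genes, of which 13 were tested and 7 of those are not among the 9. Tap2, a subunit of the peptide transporter that feeds class I molecules, lies next to RT1-DOb and had log2 signals of 0.44, 0.10 and 1.27 in carbon tetrachloride rats and 1.4, 0.69 and 0.92 in corn oil rats. Its order of arrays was the one of RT1-Bb, with corn oil replicate 1 and carbon tetrachloride replicate 3 on top. Tap1, Psmb8 and Psmb9, the other transporter subunit and subunits of the immunoproteasome, lie between Tap2 and RT1-DMb and ordered the arrays differently, with corn oil replicate 3 lowest for each. Over the 6 arrays they ranged by 0.59, 0.67 and 0.37 on the log2 scale, against 1.31 for Tap2, a median of 0.98 for the 8 tested genes of the set and a median of 0.39 for all transcripts. RT1-Db2, a near relative of RT1-Db1 whose transcripts may cross-hybridise with its probes, had a log2 fold change of -0.86 ± 0.35 (SE) and the same order of arrays as RT1-Db1. RT1-DOa, the partner chain of RT1-DOb, had a log2 fold change of -0.08 ± 0.48, with corn oil replicate 3 lowest, and its sign turned without single arrays (-0.57 to 0.25).

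Factors that assemble on class II promoters were not lower as a group. Of 8 tested genes of that list, 2 were lower and 6 higher, with a median log2 fold change of 0.12, and 0 passed an adjusted p of 0.05. Rfx5, a DNA-binding subunit of the X box factor RFX, had 0.23 ± 0.09 and Rfxank, another subunit, 0.14 ± 0.08 (SE), with limma adjusted p of 0.788 and 0.825. For both, every treated array was above every control array, where 7.55% of all transcripts were higher without overlap. With the mean of all tested probes of a gene, Rfx5 was at 0.09 and Rfxank at 0.11. Nfyc, a subunit of the Y box factor NF-Y, had 0.15 ± 0.08, and Crem, of the family that binds the X2 box, had -0.23 ± 0.16. Of the interferon gamma pathway to Ciita, 9 of 10 genes were tested, 5 lower and 4 higher with a median of -0.05, and Ifng itself was not well above background on any array. Its receptor chains Ifngr1 and Ifngr2 had 0.18 ± 0.07 and 0.13 ± 0.10, and Irf2 had -0.11 ± 0.07.

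Of the genes that interferon gamma can induce, 8 were measured well above background on all 6 arrays, and all 8 were lower, with a median log2 fold change of -0.21 and 0 past an adjusted p of 0.05. The groups did not overlap for 3 of these, where 5.28% of all transcripts were lower without overlap. They were Cxcl9, Cxcl10 and Cxcl11, chemokines that bind the receptor CXCR3 on T cells, at -1.03 ± 0.25, -0.44 ± 0.21 and -0.32 ± 0.11 (SE). After normexp background correction Cxcl9 was at -0.48. The other tested gene, Cd274, which encodes PD-L1, was tested because it passed the filter in the corn oil group. Cd274 was well above background on the 3 corn oil arrays and on 0 of the treated arrays. Its log2 signals were -6.24, -5.83 and -6.23 in carbon tetrachloride rats and -5.79, -5.23 and -1.38 in corn oil rats. Corn oil replicate 3 decides its mean, so no fold is given. The mean deviation of this list from the corn oil mean was -0.39, -0.47 and -0.61 on carbon tetrachloride arrays 1 to 3, to which Cd274 adds most, and the median deviation was -0.15, -0.17 and -0.33. By the mean and the median of this list, treated array 3 was the lowest of the 3 treated arrays, but single genes differed. Among the treated arrays, array 3 was lowest for Cxcl10 and highest for Cxcl11, and array 2 was lowest for Cxcl9. For each tested class II gene and Ciita, treated array 3 was the highest of the 3. For Ciita it was at -2.10 on the log2 scale, against -2.12 on treated array 1.

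Lists for endosomal processing, class II turnover, co-stimulation, partners of class II and the invariant chain, and class I presentation had median changes close to 0. Of the 11 proteases and related genes of the endosomal pathway, 9 were lower and 2 higher, with a median log2 fold change of -0.05, and Ctsz and Ctse, both cathepsins, had -0.25 ± 0.10 and -0.27 ± 0.12 (SE). Of the genes for class II turnover, 3 of 5 were tested, and the ubiquitin ligases Marchf1 and Marchf8 had -0.09 ± 0.11 and 0.09 ± 0.09. The co-stimulatory molecules Cd86 and Cd40 had -0.31 ± 0.15 and -0.21 ± 0.19, in a list with 4 tested genes, 3 lower. The 3 include Icam1, at -0.0 ± 0.16. After normexp background correction Cd86 was at -0.05 and Cd40 at -0.19. Among partners of the invariant chain, its ligand Mif had 0.10 ± 0.10 and Cxcr4, which forms receptor complexes with CD74, -0.20 ± 0.16. Class I presentation had 12 tested genes, 11 lower and 1 higher, with a median of -0.06, and its members of smallest p were Tap1 at -0.22 ± 0.16, Tapbp at -0.29 ± 0.22, Tap2 at -0.40 ± 0.34 and Psmb9 at -0.13 ± 0.12. For these 5 lists limma gave 0 genes with an adjusted p under 0.05 and 0 with an unadjusted one under 0.05.

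**Figure D4:**
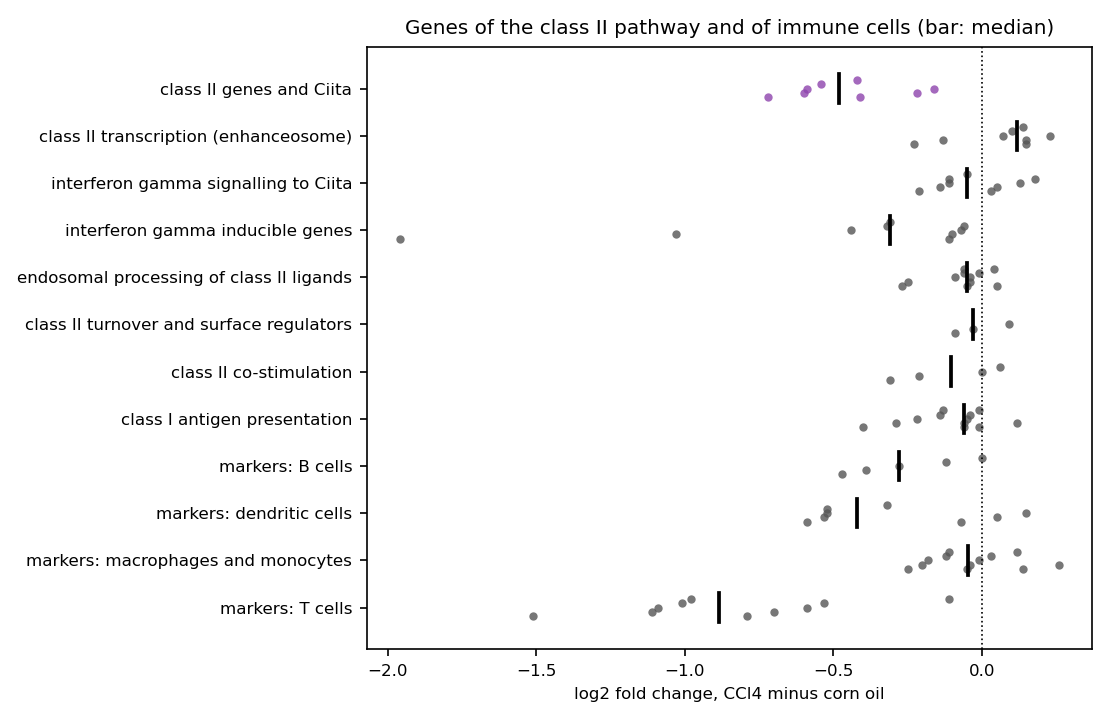
Fitted log2 fold change, carbon tetrachloride (CCl4) minus corn oil (horizontal axis), of each tested gene of the class II genes and Ciita (top row) and of lists of related genes and immune cell markers. Points are genes and bars are medians, which are -0.48 for the class II genes and Ciita, -0.31 for all 9 tested interferon gamma inducible genes, -0.42 for dendritic cell markers and -0.89 for all 10 tested T cell markers, and between -0.28 and 0.12 for the other lists. Over genes well above background on all 6 arrays the median is -0.21 for the interferon gamma inducible genes and -0.70 for the T cell markers. The leftmost point is Cd274, whose mean rests on corn oil replicate 3.

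Markers of the cells that carry class II were lower for some of these cell types. Dendritic cell markers were lower for 6 of 8 tested genes, with a median log2 fold change of -0.42, and their summed linear signal was 4.22 to 4.51 on treated arrays and 4.50 to 4.94 on control arrays. The groups did not overlap for 4 of these, where 5.28% of all transcripts were lower without overlap: Clec9a, a receptor of cross-presenting dendritic cells, at -0.59 ± 0.12, Batf3, a transcription factor of the same cells, at -0.52 ± 0.20, Cd209a at -0.52 ± 0.23 and Clec10a at -0.32 ± 0.12 (SE), with limma adjusted p of 0.689, 0.791, 0.798 and 0.786. After normexp background correction Clec9a was at -0.33, Batf3 at -0.27, Cd209a at -0.26 and Clec10a at -0.36. Xcr1 was not well above background on any array, and Flt3, Itgax and Siglech had no probe. B cell markers were lower for 5 of 5 tested genes, with a median of -0.28, where 47.7% of all transcripts were lower. The 5 include Cd22, at -0.0 ± 0.32 (SE), and the groups overlapped for each of them. Their summed linear signal was 1.19 to 1.84 on treated arrays and 1.65 to 2.10 on control arrays. Pax5, a transcription factor of B cells, had -0.39 ± 0.20, while Blk, Cr2 and Bank1 were not well above background on any array, and Cd79a and Ms4a1 had no probe.

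Macrophage and monocyte markers were lower for 8 and higher for 4 of 12 tested genes, with a median log2 fold change of -0.04. Their summed linear signal was 94.6 to 107.2 on treated arrays and 91.5 to 129.6 on control arrays, with Aif1 at -0.25 ± 0.16 and the mannose receptor Mrc1 at 0.26 ± 0.20 (SE). T cell markers were lower for 10 of 10 tested genes, with a median of -0.89 and a summed linear signal of 1.58 to 1.69 on treated arrays and 2.36 to 2.81 on control arrays. Over the 7 of these that were well above background on all 6 arrays the median was -0.70. Cd8b was at -0.98 ± 0.09, Cd247 at -0.79 ± 0.08 and Cd3g at -1.01 ± 0.15 (SE), with limma adjusted p of 0.187, 0.215 and 0.627. After normexp background correction these 3 were at -0.73, -0.59 and -0.81. Cd4 was at -0.11 ± 0.11 (SE), and its groups overlapped. Cd5 had 0 treated arrays well above background and was at -0.15 after normexp background correction, so no fold is given. In these 4 marker lists the count past an adjusted p of 0.05 was 0, and at an unadjusted p under 0.05 there were 3 for dendritic cells, 0 for B cells, 0 for macrophages and 9 for T cells, all lower, where 2.63% of all transcripts were. For T cells it was 6 of the 7 measured on all 6 arrays. Endothelial markers had 1 lower and 6 higher of 7 tested genes, a median of 0.08 and a summed linear signal of 29.9 to 32.9 on treated arrays and 27.6 to 33.3 on control arrays. Nos3, the endothelial nitric oxide synthase, had 0.40 ± 0.07 and Tek, an angiopoietin receptor, 0.23 ± 0.08 (SE), both without overlap, where 7.55% of all transcripts were higher without overlap, with limma adjusted p of 0.689 and 0.768. Sums are led by the brightest probes of a list. The array that was high for the class II loading genes, carbon tetrachloride replicate 3, was the lowest of the 6 by the mean of the B cell markers, at -0.51 from the corn oil mean. The part of any of these cells in the class II values was not tested.

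**Figure D5:**
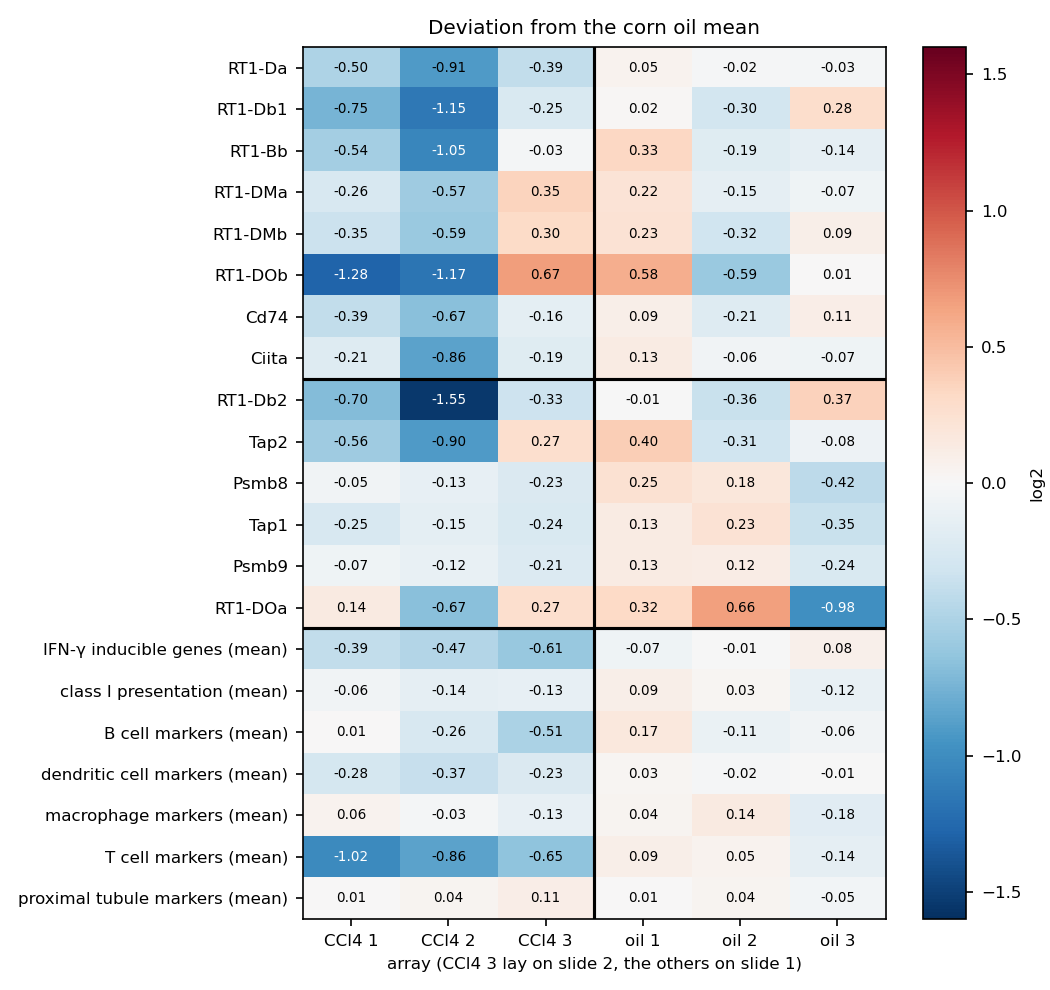
Log2 deviation of each array from the corn oil mean (colour and printed number) for the 8 tested genes (top block), for neighbouring genes on chromosome 20 (middle block) and for the means of gene lists (bottom block). Columns are arrays, carbon tetrachloride (CCl4) left of corn oil. Treated arrays 1 and 2 are below 0 for each of the 8 genes, treated array 3 is above 0 for RT1-DMa, RT1-DMb, RT1-DOb, Tap2 and RT1-DOa, and the T cell marker mean is below 0 on all 3 treated arrays.

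Across the 6 arrays, the mean centred log2 profile of the 8 genes was -0.31, -0.64 and 0.27 in carbon tetrachloride rats 1 to 3 and 0.43, 0.00 and 0.25 in corn oil rats 1 to 3. Among 12327 other tested transcripts with a symbol, the 6 whose centred values over the 6 arrays had the smallest root mean square difference from it were Kcnip1 (0.05), Ogn (0.10), Lgi3 (0.11), Gas2 (0.11), Ptmal1 (0.11) and Adamts9 (0.13). The same measure was 0.11 for RT1-Bb, 0.13 for RT1-DMb, 0.14 for Cd74, 0.16 for RT1-DMa, 0.18 for Ciita, 0.19 for RT1-Db1, 0.20 for RT1-Da and 0.46 for RT1-DOb. The log2 fold changes of the 6 most similar transcripts ran from -0.51 ± 0.17 for Ptmal1 to -0.31 ± 0.26 for Lgi3, with limma adjusted p from 0.768 to 0.849. After normexp background correction the dim Kcnip1, Lgi3 and Ptmal1 were at -0.17, -0.05 and -0.15. Ogn, Gas2 and Adamts9 were then at -0.33, -0.39 and -0.34. With 6 arrays and this many transcripts, a close profile describes these arrays only.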

How the data were processed

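Labelled RNA of the renal cortex was hybridised to 6 single-colour Agilent arrays. Per the file headers the software was Agilent's Feature Extraction, 10.7.1.1, which the submitters' processing notes give as 10.7. The processed signal is a background-subtracted linear intensity, which the authors deposited. The deposited value table is the same intensity divided by 1 factor per array (1015 to 1092), close to its 75th percentile, with column medians of 0.116, 0.115 and 0.111 for carbon tetrachloride and 0.118, 0.111 and 0.114 for corn oil replicates 1 to 3. So scale, centring and direction of the table are known.

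That processed signal was put on the log2 scale, and the 75th percentile of the array was subtracted. The 1439 control spots and spots with an outlier flag (0 to 25 per array) were left out, and 1 other spot was saturated. Between 68.5% and 72.1% of 61537 probes were well above background on an array. The number of arrays limits the precision. Testing took the 42400 probes that were well above background throughout 1 or both groups. Accessions without version named 28206 probes (45.8%) through RefSeq GRCr8. The array design rests on another build, so the only coordinates given are those of RefSeq's promoter sequences. The tested probe with the highest mean stood for a gene, giving 31193 transcripts.

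The comparison used lmFit and eBayes of limma (3.58.1; R 4.3.3), two-sided, with Benjamini-Hochberg adjustment over all transcripts. According to the design text the replicates are biological. The code was tested on simulated data. The 9 genes and all lists were chosen with earlier results of these data known. From each list the rule names up to 4 genes of smallest p, of which some lists are given with fewer and some genes are not reported here, and the 6 genes of closest profile. RT1-Db2, the neighbouring genes and Cd4 were chosen after their values were seen. The planned normexp alternative used the median spot signal, as the files hold no mean signal. Over all transcripts, same-numbered arrays of the groups did not deviate together (correlations of deviations -0.02, -0.10 and -0.08). The replicate numbers were therefore not treated as pairs, and pairing at single genes was not tested.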

Additional observations from a re-analysis of the deposited data

How the results depend on the processing

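The 19 other settings changed the background correction, scaling, source of values, filter on dim probes, combination of probes, variance model and blocks, or left out 1 array. In all of them 0 of the 9 genes passed an adjusted p of 0.05, as with a threshold of 0.10. The 1 transcript past the threshold, which is none of the 9, became 0 under both normexp settings, under no dim-probe filter and the all-6-array filter, under the robust trend fit, under the replicate block, under the slide block and on slide 1 alone. Leaving out 1 array gave 0 to 2: leaving out carbon tetrachloride replicate 2 or 3 or corn oil replicate 1 gave 0, and leaving out corn oil replicate 3 gave 2. Between 1520 and 2712 features had an unadjusted p under 0.05. The slide block, slide 1 alone and leaving out carbon tetrachloride replicate 3 amount to the same fit.

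The median log2 fold change of the tested genes stayed below 0 in each setting. It was -0.48 in the main fit, -0.62 with the slide block and -0.28 without carbon tetrachloride replicate 2. Each shift was smaller than the spread of the median between replicates (0.35, SD). Leaving out 1 of 3 arrays could hardly exceed that spread, so this does not show stability. The changes of RT1-Da (-0.70 to -0.45), RT1-Db1 (-0.95 to -0.50), RT1-Bb (-0.79 to -0.28), RT1-DMb (-0.47 to -0.03), RT1-DOb (-1.23 to -0.25), Cd74 (-0.53 to -0.27) and Ciita (-0.54 to -0.20) kept their direction. RT1-DMa ran from -0.42 to 0.04 without single arrays, and RT1-DOa from -0.57 to 0.25. With the replicate block, whose numbers were not treated as pairs in the main fit, 3 of the genes had an unadjusted p under 0.05, as without it. Of 1080 single-gene values, 1076 kept direction and side of the threshold and 4 turned sign, all without 1 array.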
